A study of Homo sapiens with 3 samples.

Results

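The genes described here are 37 targets of the transcription factor p53, chosen by symbol from the gene names on the array and grouped as feedback genes, cell cycle arrest genes, death receptors, other apoptosis genes, repair genes, metabolic genes and others. The 38 symbols listed name 37 genes, since C12orf5, the name on the array, is TIGAR. All 37 had a probe, among 43299 gene names on the array. Of these 37, 34 were well above background on at least 1 array, as were 22620 gene names in all, and the 34 were well above background on each of the 3 arrays. EDA2R, TP53AIP1 and SPATA18 were not well above background on any array, so no change is given for them.

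Expression was measured in HCT116 cells, a human colorectal cancer line. The groups were SMARCA4-KD1 (KD1) and SMARCA4-KD2 (KD2), cells transfected with either of 2 small interfering RNAs (siRNAs) against SMARCA4, and NC, the negative control, with 1 array of total RNA each. All were grown in the same medium and transfected with Lipofectamine 3000, and the time from transfection to harvest is not given in the sources used here. SMARCA4 is an ATPase of the SWI/SNF complex, which moves and evicts nucleosomes, and the study asked which genes depend on it.

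p53 is a transcription factor that is stabilised after DNA damage and other stress, and it binds a pair of half-sites in the genes it activates. Its targets halt the cell cycle, start apoptosis, repair DNA and adjust metabolism, and some of them, MDM2 first among these, switch p53 off again. Many of these genes keep a basal level of transcription in unstressed cells, and other factors also act on most of them.

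The signal of SMARCA4 was 3960.2 in KD1, 4129 in KD2 and 14026 in NC, in units of background-subtracted intensity. The titles of the samples name SMARCA4 and their treatment field names PRMT1, which had log2 fold changes of 0.27 and 0.37, so the lower gene was the one in the titles. Fold changes here are differences in log2 signal after the 75th percentile of each array (an intensity between 223 and 237) was subtracted. They have no replicate check, since each group has 1 array, and both comparisons share the NC array. The knockdown arrays lay on slide 1 and NC on slide 2, so that slide and group cannot be told apart. The 8 spike-in controls well above background were lower in both knockdowns, by means of -0.30 and -0.32 on the log2 scale, which would add that much to each fold change if the arrays were scaled to them. Of 10 colon epithelial markers 8 were measured, and VIL1 and LGALS4 were not well above background. KRT20, a keratin of differentiated colon cells, was the only one of them past 1.5-fold in both knockdowns, with a signal of 40.2 in KD1, 50.8 in KD2 and 17.5 in NC, where it was not well above background, so at least 2.15-fold and 2.81-fold higher. Of the leukocyte, endothelial and fibroblast markers 3 of 4, 2 of 3 and 1 of 5 were measured, and none was at least 1.5-fold apart from NC in both knockdowns. Both measured endothelial markers were past 1.5-fold in KD2 alone, VWF with log2 fold changes of 0.13 and 1.08 and CDH5 with 0.23 and 0.70, at signals of 61.2 or less, while another VWF probe was lower in both knockdowns and PECAM1 was not well above background. The part of these markers in the results was not tested.

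More of the p53 targets were higher than lower after SMARCA4 knockdown with either siRNA. In KD1, 11 of the 34 measured targets were at least 1.5-fold higher than in NC, against 11.2% of all 22620 genes, and 1 was at least 1.5-fold lower, against 12.2%. In KD2, 8 were higher, against 10.1% of all genes, and 1 was lower, against 9.77%. The same 8 genes were higher in both knockdowns, 23.5% of the targets against 6.36% of all genes. They were MDM2, SFN, PLK2, PLK3, BAX, AEN, FDXR and ZMAT3. The lower gene was APAF1 in both knockdowns, and 8.03% of all genes were lower in both. A change in the RNA of every cell and a change in the mix of cells cannot be told apart in bulk RNA.

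The shift extended beyond the genes past 1.5-fold. The median log2 fold change of the targets was 0.26 in KD1 and 0.34 in KD2, and that of all genes was -0.0022 and 0.02. Of the 34 targets, 25 (73.5%) were above 0 in both knockdowns, as were 41.1% of all genes. The 4 below 0 in both were MDM4, GADD45A, APAF1 and POLH (11.8%, against 39.3% of all genes). The other 5 were of opposite sign, as were 4433 of the 22620 genes. When the arrays were scaled to the spike-in controls instead, 31 targets were above 0 in both knockdowns, POLH among them, and 3 remained below. That scaling raised the medians of all genes to 0.30 in KD1 and 0.34 in KD2, so the 31 cannot be set against the 41.1%. When all genes were divided into 3 equal bins by mean signal, 23 of the 34 targets fell in the brightest. In that bin the median of the mean log2 fold change was 0.47 for the targets and 0.09 for all 7540 genes, with 7 of the 8 higher genes in it. In the middle bin the medians were 0.08 for 10 targets and 0.0032 for all genes, and the 1 target in the dimmest bin was APAF1, at -0.93. The part of brightness in the shift was not tested.

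**Figure D1:**
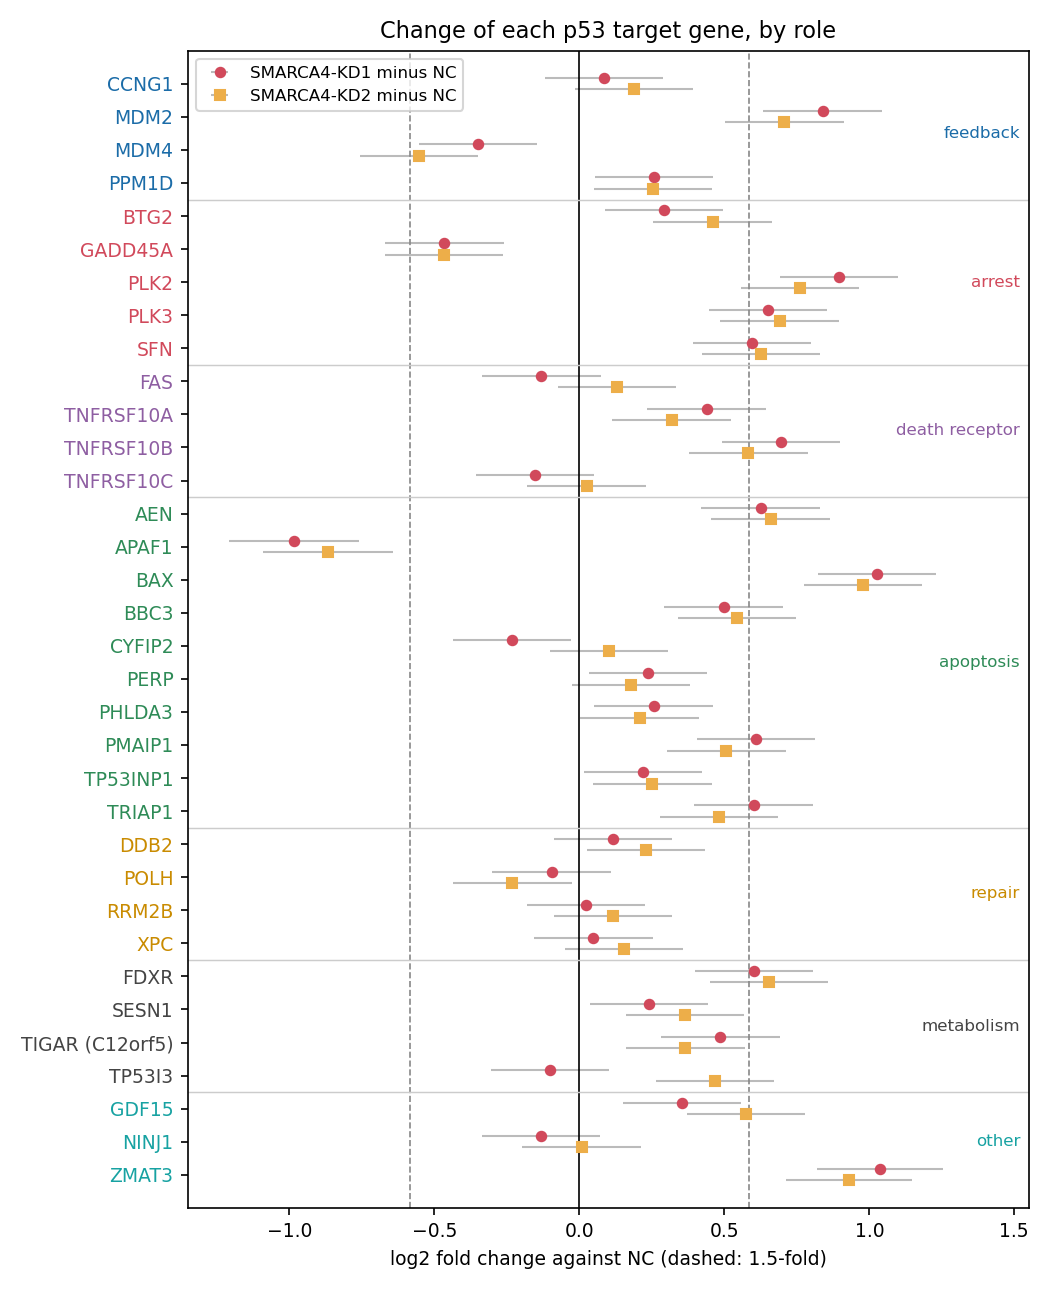
Log2 fold change against NC of the 34 measured p53 targets, by role (coloured names), in KD1 (circles) and KD2 (squares). Horizontal bars are the error that the extraction software gives for each difference, between 0.20 and 0.23, not a spread between replicates, and dashed lines mark 1.5-fold. Most marks lie to the right of 0, and APAF1 lies farthest to the left.

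limma, fitted to both knockdowns against NC with 1 residual degree of freedom, called none of the 34 targets at an adjusted p of 0.05, as 0.0% of all genes passed, and the smallest adjusted p was 0.0939. This fit assumes that NC varies as the knockdowns do, and with so few degrees of freedom its count of 0 does not show that the targets were unchanged. At an unadjusted p under 0.05, limma had 20 targets, 17 higher and 3 lower (GADD45A, MDM4 and APAF1), against 30.7% of all genes. The methods' t-test was also run on the same values, and since NC has 1 array no counts from it are given.

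Among the feedback genes, MDM2, the ubiquitin ligase that marks p53 for degradation, was higher in both knockdowns. The signal of its brightest probe was 1399 in KD1, 1231 in KD2 and 738 in NC. Both knockdowns lay above NC, 1.79-fold and 1.63-fold, or 0.84 and 0.71 on the log2 scale. MDM4, which binds and blocks p53, lay on the other side of NC, with a signal of 1749.9 in KD1, 1467 in KD2 and 2104 in NC. Its log2 fold changes were -0.35 and -0.55, short of 1.5-fold, and with spike-in scaling they were -0.05 and -0.24. PPM1D, a phosphatase that removes activating phosphates from p53 and its kinases, had log2 fold changes of 0.26 and 0.25. CCNG1, a cyclin that works with a phosphatase on MDM2, had 0.08 and 0.19.

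The 3 MDM2 probes did not give the same size of change, and the first bases of each are shown so that the part of the gene behind each value can be found. They are the first 30 of the 60 bases of each probe, with positions in hg19 as in the array files.
MDM2 brightest probe (chr12:69238891-69238950, +): tatgatggtaaccacaagttgttaatggca
MDM2 second probe (chr12:69233570-69233629, +): aagccctgcccagtatgtagacaaccaatt
MDM2 dimmest probe (chr12:69233822-69233881, +): tcatcctttacaccaactcctaattttaaa

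The second MDM2 probe had a signal of 403 in KD1, 368 in KD2 and 320.1 in NC, with log2 fold changes of 0.25 and 0.17. The dimmest had 218, 184 and 174, with log2 fold changes of 0.24 and 0.05. All were above NC, but only the brightest passed 1.5-fold, and with the mean over the probes MDM2 had log2 fold changes of 0.44 and 0.31. Across the 14 targets with more than 1 measured probe, the probes' mean log2 fold changes differed by a median of 0.12, and MDM2 had the widest range, 0.63. In 10 of the 14 genes all probes had the same sign in both knockdowns, and in none did probes disagree in sign in both. The 3 MDM4 probes were all below 0 in both knockdowns.

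The arrest genes held the largest share of genes past 1.5-fold, 3 of 5 higher in both knockdowns, and their median log2 fold change was 0.59 in KD1 and 0.63 in KD2. PLK2, a polo-like kinase induced in stressed cells, had a signal of 13497 in KD1, 11872 in KD2 and 6849 in NC. The related kinase PLK3 had a signal of 13526, 13412 and 8126 in the same order. In both genes the knockdown arrays lay close together and above NC, with log2 fold changes of 0.89 and 0.76 for PLK2 and of 0.65 and 0.69 for PLK3. SFN, an adaptor protein of epithelial cells that holds cyclin B complexes in the cytoplasm, had a signal of 85373 in KD1, 84172 in KD2 and 53323 in NC. Its log2 fold changes, 0.59 and 0.63, lay just above the threshold, and with quantile normalization they were 0.59 and 0.54. BTG2, an antiproliferative cofactor of mRNA decay, had log2 fold changes of 0.29 and 0.46. GADD45A, a stress protein that binds PCNA and cell cycle kinases, went the other way, with a signal of 6675 in KD1, 6432 in KD2 and 8696 in NC. Its log2 fold change was -0.47 in both, and with spike-in scaling it was -0.16 in KD1 and -0.15 in KD2.

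CDKN1A, the cyclin-dependent kinase inhibitor p21 and the best known arrest target of p53, was counted with other p53 targets and not with the 37. Its only probe had a signal of 1409.5 in KD1, 1079 in KD2 and 636 in NC. Both knockdowns lay above NC, with log2 fold changes of 1.06 and 0.73.

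The death receptors were uneven. TNFRSF10B, a receptor of the ligand TRAIL that starts apoptosis, had a signal of 14690 in KD1, 13104 in KD2 and 8556 in NC. With log2 fold changes of 0.70 and 0.58, it passed 1.5-fold in KD1 and lay just short of it in KD2. TNFRSF10A, the other TRAIL receptor with a death domain, had log2 fold changes of 0.44 and 0.32. TNFRSF10C, a decoy receptor that lacks a death domain, had -0.15 and 0.03, and FAS, the receptor of FAS ligand, had -0.13 and 0.13. These last values are smaller than the extraction error, and with spike-in scaling both genes lay above 0 in both knockdowns.

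Of the 10 measured apoptosis genes, 8 were above 0 in both knockdowns, as were 41.1% of all genes. At least 1.5-fold apart in both were 2 higher and 1 lower, against 6.36% and 8.03% of all genes. BAX had the highest log2 fold changes of the 10. BAX forms the pore in the outer mitochondrial membrane through which cytochrome c leaves. Its brightest probe had a signal of 8714 in KD1, 8126 in KD2 and 4036 in NC. The knockdown arrays lay 2.04-fold and 1.97-fold above NC, 1.03 and 0.98 on the log2 scale. Its second probe, at another position of the gene, had 275, 220.4 and 105, with log2 fold changes of 1.31 and 1.04. These 2 probes do not overlap, and the first 30 bases of each are shown because they give the same direction from separate stretches of the gene.
BAX brightest probe (chr19:49464904-49464963, +): tgccttggactgtgtttttcctccataaat
BAX second probe (chr19:49464454-49464513, +): ctgcctctggaattgctcaagttcattgat

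AEN, a nuclease that degrades DNA and RNA during apoptosis, had a signal of 1130.5 in KD1, 1117 in KD2 and 691 in NC. Its log2 fold changes were 0.63 and 0.66, and its second probe had 0.48 and 0.51. The BH3-only genes, whose proteins free BAX and its relatives to act, were short of the threshold in at least 1 knockdown. PMAIP1 (NOXA) had log2 fold changes of 0.61 and 0.51, and BBC3 (PUMA) had 0.50 and 0.54. TRIAP1, which works against apoptosis at the mitochondrion, had 0.60 and 0.48. PERP, TP53INP1 and PHLDA3 had log2 fold changes between 0.18 and 0.26. CYFIP2, a subunit of the WAVE complex of actin control, had -0.23 and 0.10.

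APAF1, the scaffold on which released cytochrome c assembles the apoptosome, was the only target at least 1.5-fold lower. Its signal was 59.9 in KD1, 62.7 in KD2 and 112 in NC. The knockdown arrays lay 1.98-fold and 1.82-fold below NC, -0.98 and -0.87 on the log2 scale. These signals were well above background on each array, and with normexp background correction the log2 fold changes were -0.52 and -0.47, short of 1.5-fold. BAX and APAF1, which act in the same pathway before and after the release of cytochrome c, thus lay on opposite sides of NC.

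**Figure D2:**
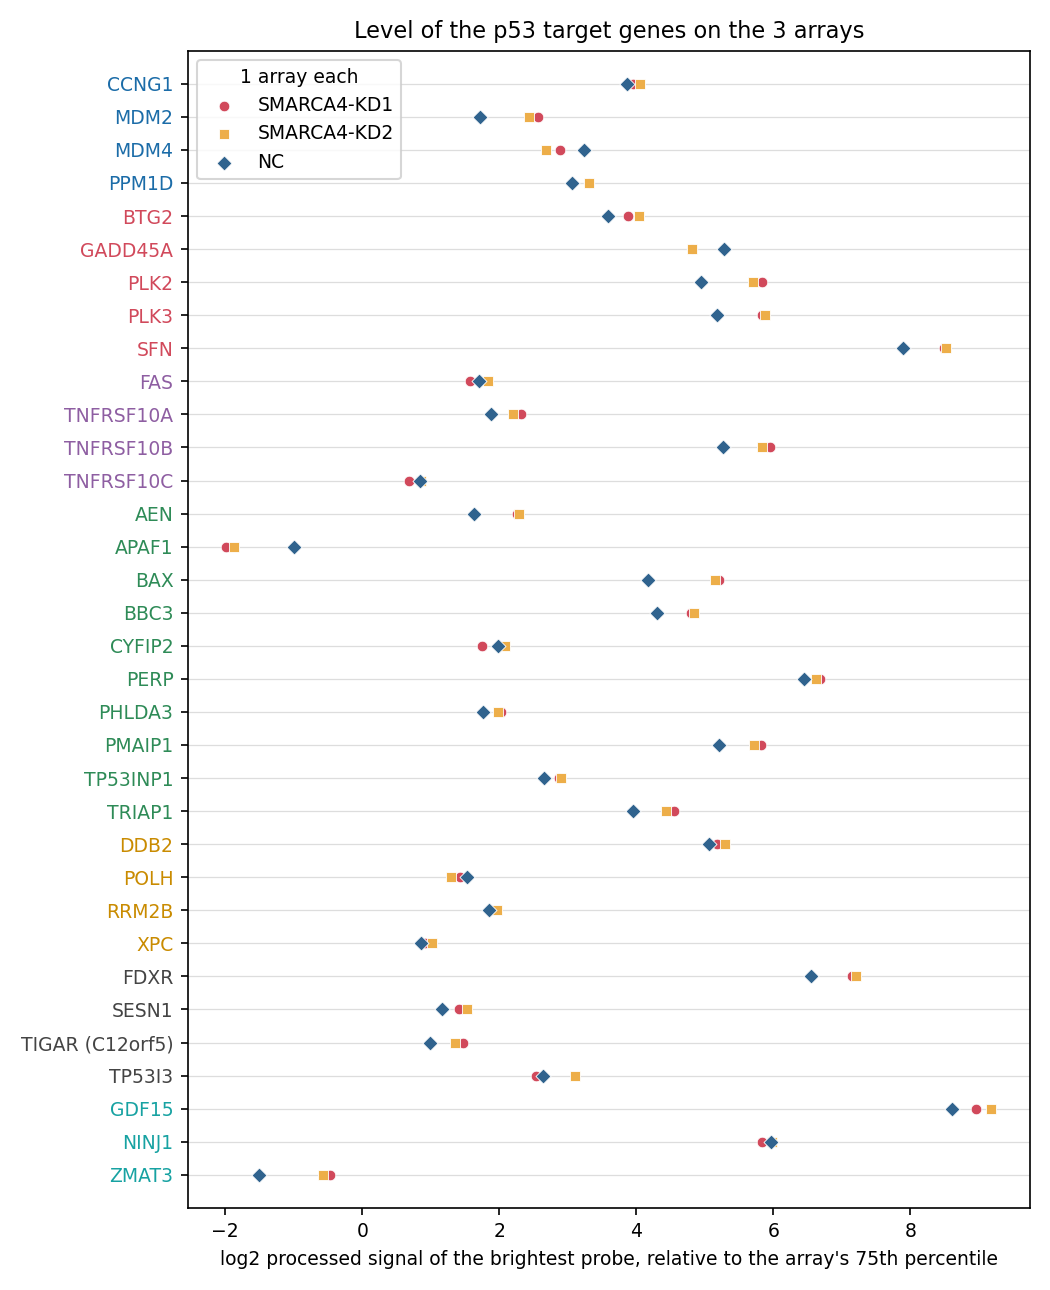
Log2 processed signal of the brightest probe of each of the 34 measured p53 targets on the KD1, KD2 and NC arrays, after the 75th percentile of its array was subtracted. Names are coloured by role as in the plot of fold changes, some marks overlap, and marks compare arrays within a gene only, since probes differ in how they hybridise. The knockdown marks of MDM2, PLK2, BAX and ZMAT3 lie together to the right of NC, and those of APAF1, GADD45A and MDM4 lie to its left.

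None of the 4 repair genes was 1.5-fold apart in either knockdown. Of all genes, 11.2% were higher and 12.2% lower in KD1, and 10.1% and 9.77% in KD2. The log2 fold changes of DDB2 and XPC, which recognise damage for nucleotide excision repair, were 0.12 and 0.23 for DDB2 and 0.05 and 0.15 for XPC. RRM2B, a subunit of ribonucleotide reductase, had 0.02 and 0.12. POLH, the polymerase that copies past ultraviolet damage, had -0.10 and -0.23, which became 0.21 and 0.08 with spike-in scaling. The median of the repair genes was 0.03 in KD1 and 0.13 in KD2. The signs of DDB2, XPC and RRM2B in KD1 depended on the normalization, as DDB2 had -0.01 with quantile normalization.

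Of the metabolic genes, FDXR was higher in both knockdowns. FDXR passes electrons to ferredoxins in the mitochondrion. Its signal was 33702 in KD1, 33697 in KD2 and 20933 in NC, with log2 fold changes of 0.60 and 0.65. It was among the genes closest to the threshold, and with quantile normalization it had 0.49 and 0.53. TIGAR, a phosphatase that lowers glycolytic flux, had 0.49 and 0.36, and SESN1, a sestrin that restrains mTORC1, had 0.24 and 0.36. TP53I3, a quinone oxidoreductase, differed most between the siRNAs, with a signal of 1377 in KD1, 1971 in KD2 and 1393 in NC. Its log2 fold changes were -0.10 and 0.47, and those of its second probe were -0.12 and 0.39.

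The remaining members have other roles. ZMAT3, an RNA-binding zinc finger protein, had a signal of 171 in KD1, 153 in KD2 and 78.7 in NC. Its log2 fold changes were 1.04 and 0.93, and with normexp background correction they were 0.64 and 0.60. GDF15, a secreted cytokine of the TGF-beta family, had a signal of 118187, 132895 and 87197, with log2 fold changes of 0.35 and 0.58. NINJ1, which ruptures the plasma membrane of dying cells, had -0.13 and 0.01.

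The siRNAs gave similar changes in most of the targets. The difference between the log2 fold changes in KD1 and KD2, from which NC drops out, had an SD of 0.16 over the 34 targets and ran from -0.57 (TP53I3) to 0.20 (MDM4). Of the 9 genes past 1.5-fold in both, MDM2 and PLK2 differed most, by 0.13 each.

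**Figure D3:**
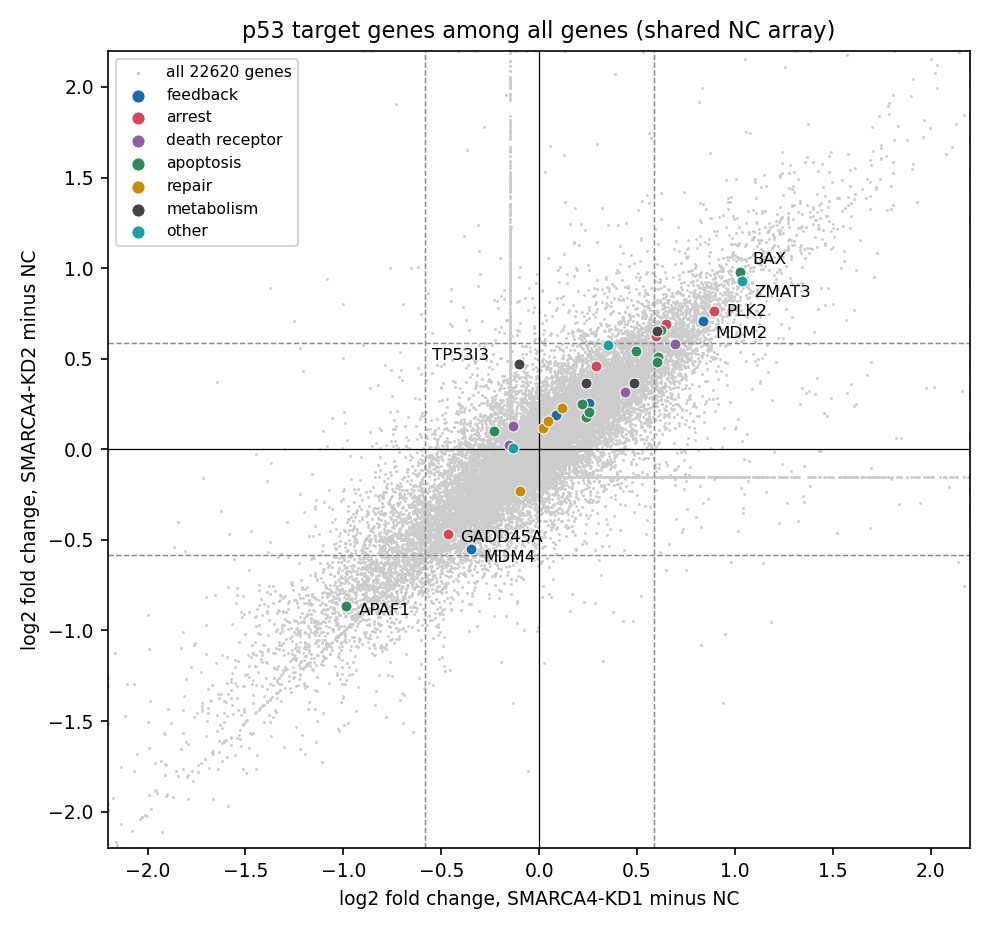
Log2 fold change against NC in KD1 (horizontal) and KD2 (vertical) of all 22620 genes (grey) and of the 34 measured p53 targets (coloured by role). Dashed lines mark 1.5-fold, the thin straight runs of grey points are genes not well above background in NC and 1 knockdown, and points beyond the axes are drawn at the frame. Both axes use the same NC array, which by itself spreads points along the diagonal. The targets lie mostly in the upper right, with 8 beyond both dashed lines there and APAF1 beyond both at the lower left.

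Among 23 genes that regulate p53, 22 were measured, 1 was at least 1.5-fold higher in both knockdowns and 0 were lower. Of all genes, 6.36% were higher in both and 8.03% lower. The median log2 fold change of the regulators was 0.19 in KD1 and 0.21 in KD2, so this list too lay above the median of all genes. The gene past 1.5-fold was ATM, the kinase that signals double-strand breaks to p53, with 0.83 and 0.65 for its brightest probe. Its other measured probes, at signals of 44.8 or less, had 0.16 and 0.32, and -0.42 and -0.13. The ATM probes thus disagreed in sign in both knockdowns, and only the brightest passed 1.5-fold.

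In a list of 47 other p53 targets, CDKN1A among them, 45 were measured, and their median log2 fold change was 0.07 in KD1 and 0.10 in KD2. Of these 45, 5 (11.1%) lay at least 1.5-fold above NC in both knockdowns, against 6.36% of all genes. Another 2 (4.44%) lay at least 1.5-fold below in both, against 8.03% of all genes. The members at least 2-fold apart in both were TRAF4, an adaptor of receptor signalling, higher by 1.44 and 1.16 on the log2 scale, and TLR3, a sensor of double-stranded RNA, with -1.53 and -1.06. The 37 targets thus had a higher median than these other targets in both knockdowns, and no test of that difference was made. Both lists were chosen with earlier results of these data known, which limits what the contrast can show.

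**Figure D4:**
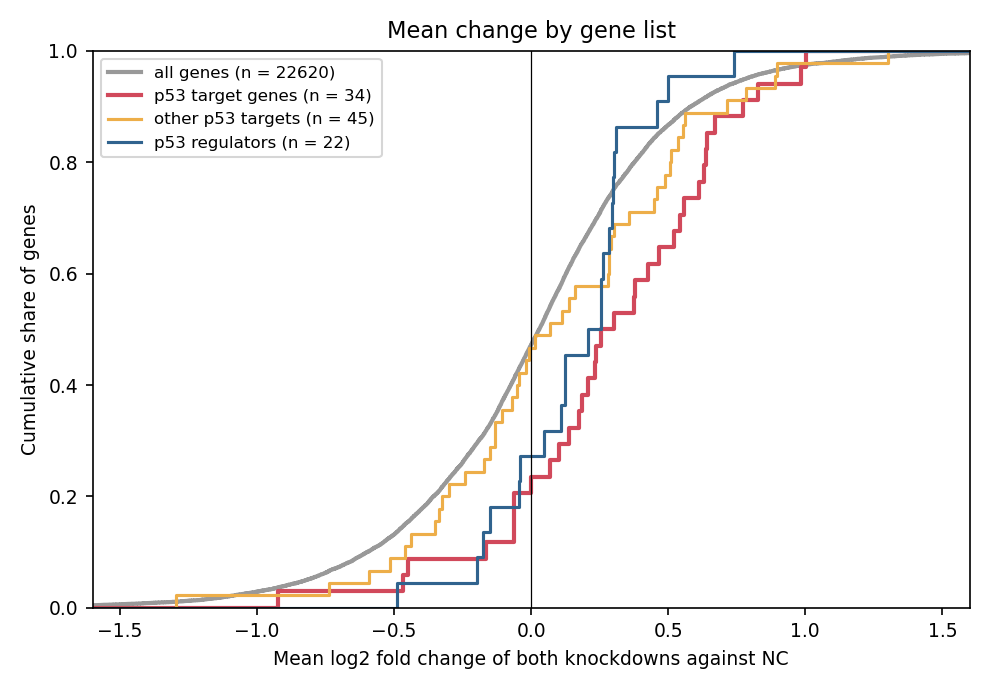
Cumulative share of genes (vertical) up to a given mean log2 fold change of both knockdowns against NC (horizontal), for all genes, the measured p53 targets, other p53 targets and p53 regulators. The curve of the 34 targets lies to the right of the curve of all genes over most of its range, with a median of 0.28 against 0.03, and the median of the 45 other targets was 0.07.

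Promoters were searched for the letters that p53 binds, because 8 targets were higher together. RefSeq promoters of GRCh38.p14, from 250 bases before to 50 after the start of the gene, were given for 30 of the 37 genes. GADD45A, TNFRSF10A, TNFRSF10B, TNFRSF10C, TP53INP1, PHLDA3 and RRM2B had no entry. The p53 half-site consensus, which reads the same on both strands, was found without mismatch in 3 of the 30 (10%), against 6.54% of 27305 promoters. The genes were PLK2, AEN and FDXR, which are among the 8 genes higher in both knockdowns. A pair of half-sites with a spacer of at most 13 bases was found in 0 of the 30, and in 0.0293% of all promoters. The median GC content of these promoters was 67.7%, and that of all promoters 58.3%. The match is a description of letters in this window only, and whether it bears on the changes was not tested. The half-sites are in capitals below, with flanking bases up to the start of the gene, and they lie 132 to 123, 34 to 25 and 11 to 2 bases before it.
PLK2 promoter (chr5:58460194-58460233, -): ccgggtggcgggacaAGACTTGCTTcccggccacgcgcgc
AEN promoter (chr15:88621291-88621330, +): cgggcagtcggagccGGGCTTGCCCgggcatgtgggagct
FDXR promoter (chr17:74872995-74873020, -): ggcccgggcaggagcGGGCTTGCCCt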

How the data were processed

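The arrays were 1-colour Agilent arrays (Cy3), and the authors deposited the intensity of each spot as extracted with Agilent Feature Extraction 10.7.1.1, background-subtracted and detrended but not normalized between arrays. The deposited files also hold other columns, such as flags, which were used as given, and a series-level table of intensity was used as an alternative. Control spots were removed, as were outlier spots by the software's own flags, and 30 probes with no spot left on some array were dropped. The 75th percentile of each array over all 58201 probes was subtracted from the log2 signal. Between 26609 and 27527 probes were well above background and none was saturated. Values that were not well above background were raised to the lowest signal that was, unless they exceeded it. A probe entered if any array had it well above background, and the brightest such probe stood for each gene name, as named in the files.

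The fold changes of each knockdown against NC were counted past 1.5-fold, as in the methods, with no test. Both knockdowns were compared with NC in limma 3.58.1 (R 4.3.3) with a trend on mean intensity, and p-values were adjusted by Benjamini-Hochberg over 22620 genes. These values also went through the methods' t-test. Counts and figures were made in Python 3.11.15 with pandas 2.3.3, numpy 2.4.6 and matplotlib 3.10.9. The steps were tested on simulated data. Every target could be named, those past 1.5-fold in both knockdowns and MDM2 in full, and other listed genes if 2-fold apart in both. ATM was named after its value was seen, as the only regulator counted, and so were the listed genes not well above background. The members, lists and roles were chosen with earlier results of these data known. Alternatives were quantile normalization, normexp (offset 50), the 75th percentile taken over probes well above background, other filters, no floor, the mean over probes, the series-level table, a 2-fold threshold, and limma with no trend or an unadjusted p. Spike-in scaling was added after the data were seen. Some listed items are not reported here.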

Additional observations from a re-analysis of the deposited data

Results flagged for a closer look

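In 5 of the 34 targets the sign of the log2 fold change against NC differed between the siRNAs, as it did in 4433 of 22620 genes. With 1 array each the difference was not tested. SMARCA4-KD1 minus SMARCA4-KD2 was -0.57 for TP53I3, -0.33 for CYFIP2, -0.26 for FAS, -0.18 for TNFRSF10C and -0.14 for NINJ1. Of these, TP53I3, CYFIP2 and FAS were past the extraction error of 0.20, TP53I3 by the most. The second TP53I3 probe had the same signs as the first. The 3 FAS probes all had this pair of signs, and the second CYFIP2 probe was above 0 in both knockdowns, at 0.11 and 0.05. All 5 were above 0 in both knockdowns with spike-in scaling, which raised the medians of all genes to 0.30 and 0.34.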

How the results depend on the processing

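Each group had 1 array here, so the precision is limited by the 3 arrays, and slide and group cannot be told apart. No paired analysis was possible because each group has 1 array. No replicate could be left out for the same reason. The number of targets at least 1.5-fold apart in both knockdowns was 9, and between 6 and 9 under the 8 other ways of normalizing, filtering or summarizing the probes. Under these 8, between 3.32% and 8.32% of all genes were higher in both, and between 3.80% and 9.27% were lower in both. BAX, PLK2 and ZMAT3 were past 1.5-fold in both under all 8, MDM2, PLK3 and APAF1 under 7, SFN and AEN under 6 and FDXR under 5. With the percentile over probes well above background, 7 targets in place of 12 were past 1.5-fold in SMARCA4-KD1, where 9.40% of all genes were higher. At 2-fold, 2 were left in SMARCA4-KD1 (BAX and ZMAT3), 0 in SMARCA4-KD2 and 0 in both. The share of all genes past 2-fold is not given here, so these counts stand without a comparison. With spike-in scaling the medians of all genes were 0.30 and 0.34, those of the targets were 0.56 and 0.66, and 18 targets were past 1.5-fold in SMARCA4-KD2 and 16 in both, all of them higher, against 27.6% and 19.2% of all genes higher. The number of targets that limma called moved most, from 0 to 11 with quantile normalization (11.7% of all genes), 15 with normexp (15.9%), 16 with a filter on all arrays (26.5%), 14 without a floor (14.8%), 14 with the series-level table (16.02%), 22 with spike-in scaling (23.5%) and 20 at an unadjusted p under 0.05 (30.7%). Without a filter limma called 22 of 37 targets (59.5%), below the 66.0% of all genes. It was 0 without the intensity trend, with the mean over probes and with the percentile over probes well above background. The cause was not tested. Of the targets, 5 changed sign in a knockdown under another planned setting and 6 under spike-in scaling, and none of these was past 1.5-fold.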
